A study of Rattus norvegicus with 6 samples.

Results

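Neuregulins, epidermal growth factor (EGF) ligands and the ErbB receptors they bind were followed in rat sciatic nerve by 10 genes, chosen by symbol from the 29884 genes of the deposited count table: the ligands Nrg1, Nrg2, Btc, Hbegf, Areg and Tgfa, and the receptors Egfr, Erbb2, Erbb3 and Erbb4. All 10 symbols were found. The conduit group held 3 RNA sequencing libraries of injured nerve treated with PLLA-PCL-RVC, a polymer conduit that the study describes as piezoelectric and loaded with ropivacaine, a local anaesthetic. The untreated group held 3 libraries of injured nerve without a conduit. Both groups came from wild type rats with chronic constriction injury (CCI), a model of neuropathic pain, and the labels used here give neither time after injury nor age. An injured nerve with a conduit lacking the drug and an uninjured nerve were not analysed here, so the polymer, its electrical property and the drug cannot be told apart. The labels do not say whether each library is a separate animal, so p-values measure the spread between libraries, which may be partly technical.

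ErbB receptors are tyrosine kinases that signal as dimers. ErbB2 binds no ligand of its own and ErbB3 has little kinase activity, and together they form the main neuregulin receptor of Schwann cells. Neuregulin 1 on axons drives Schwann cell survival and sets myelin thickness, whereas a soluble form made by Schwann cells after injury takes part in repair. The EGF receptor binds a separate set of ligands, among them TGF-alpha, HB-EGF, amphiregulin and betacellulin, and HB-EGF and betacellulin also bind ErbB4. All are made as membrane-anchored precursors that proteases cut.

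Library totals ran from 38401951 to 42225086 counts. Levels below are CPM, that is, counts scaled to a common library size by TMM (trimmed mean of M-values), unless FPKM is named, and ± is the SD of 3 libraries. Log2 fold changes are conduit minus untreated with ± SE, and a gene was called at an edgeR adjusted p under 0.05 over all 15464 genes tested. The libraries carry 5 batch labels and no label is shared by the groups, so batch and treatment cannot be told apart. Summed Schwann cell markers (Sox10, S100b, Cdh19, Gfra3) were abundant in every library, at 3714 to 5250 CPM in conduit and 951.2 to 1035 CPM in untreated nerves. Most of each sum was S100b, at 3151 to 4640 CPM in conduit and 738.0 to 854.2 CPM in untreated nerves. Sox10 and Cdh19 were also detected in every library, whereas Gfra3 reached at most 3.42 CPM. Untreated replicate 1 stood apart by skeletal muscle markers, with 8639 CPM in sum against 61.57 and 3.498 CPM in the other untreated libraries and 1.215 to 5.029 CPM in the conduit libraries.

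Conduit nerves had far less mRNA of Nrg1 and Btc and far more of Tgfa and Erbb4 than untreated injured nerves. Nrg1 was 21.6-fold lower and Btc 14.4-fold lower, while Tgfa was 7.96-fold higher and Erbb4 5.14-fold higher. Erbb2 doubled by the fit, at 2.06-fold. Of the 9 members tested, 5 rose (Tgfa, Erbb4, Erbb2, Hbegf, Erbb3) and 3 fell (Nrg1, Btc, Nrg2), and Egfr did not pass. Over all genes tested, 50.2% were called, 24.0% higher and 26.2% lower. Scaling by library totals moved the median of all genes tested by -0.39 on the log2 scale; with it 3 members were higher and 3 lower, against 2291 genes higher and 6554 lower over the whole table. The median absolute log2 fold change was 1.46 in the 9 members and 0.64 in all genes tested. Areg did not pass the low-count filter and was not tested.

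**Figure D1:**
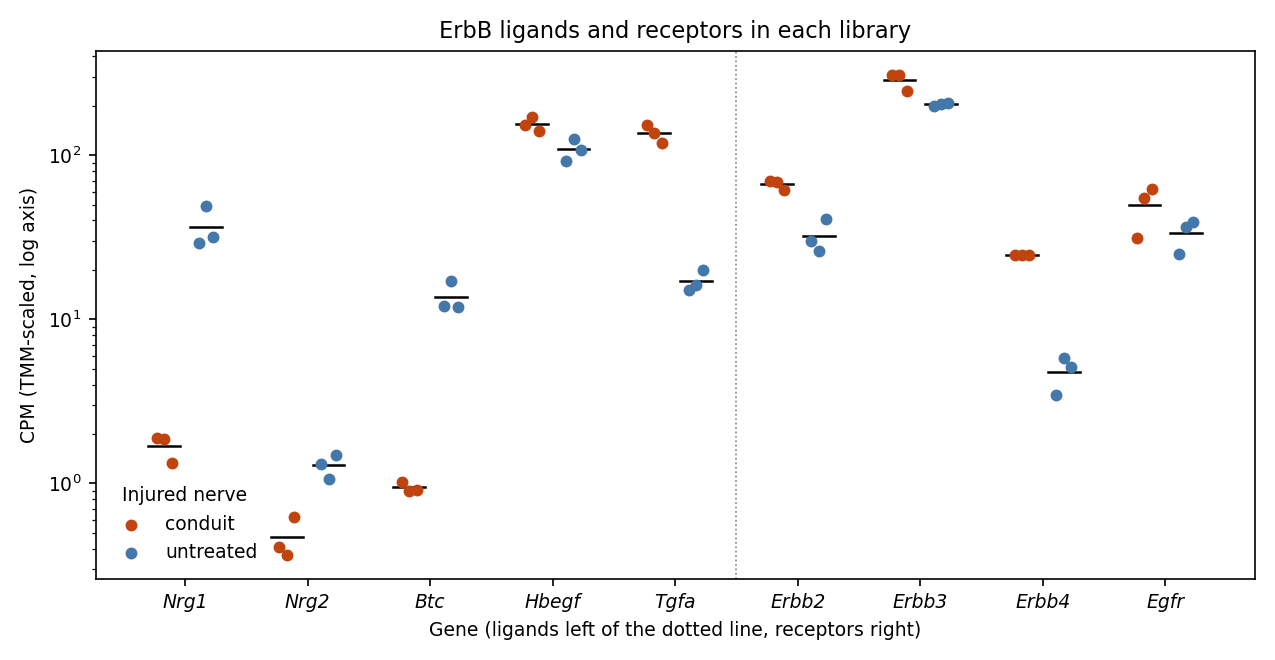
CPM on a log axis for the 9 tested genes, with 1 point per library, conduit left of untreated for each gene, and a black line at the group mean. Nrg1, Nrg2 and Btc lay lower in all 3 conduit libraries, Tgfa, Hbegf, Erbb2, Erbb3 and Erbb4 lay higher, and Egfr overlapped. Areg, with 0 CPM in 4 libraries, is not drawn.

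Upstream sequence is shown for Tgfa and Erbb4, the members with the largest rises, and for Btc, which fell, to let their base composition be compared. Each is the 250 bases before the RefSeq gene start in the GRCr8 assembly, 5′ to 3′ on the gene's strand, with CpG dinucleotides in capitals. Tgfa lies at chr4:120175469-120175718 on the plus strand, Erbb4 at chr9:78045607-78045856 on the minus strand and Btc at chr14:16992418-16992667 on the plus strand.
Tgfa: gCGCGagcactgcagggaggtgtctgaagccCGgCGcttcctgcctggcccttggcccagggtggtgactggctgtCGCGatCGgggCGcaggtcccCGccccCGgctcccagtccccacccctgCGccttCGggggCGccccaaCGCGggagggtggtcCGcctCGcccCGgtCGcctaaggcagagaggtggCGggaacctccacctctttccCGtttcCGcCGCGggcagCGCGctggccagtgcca
Erbb4: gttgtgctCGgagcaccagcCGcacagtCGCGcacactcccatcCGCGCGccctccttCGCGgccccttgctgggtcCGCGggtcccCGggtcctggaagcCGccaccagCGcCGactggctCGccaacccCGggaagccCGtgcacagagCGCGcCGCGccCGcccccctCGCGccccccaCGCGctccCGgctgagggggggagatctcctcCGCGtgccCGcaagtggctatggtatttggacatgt
Btc: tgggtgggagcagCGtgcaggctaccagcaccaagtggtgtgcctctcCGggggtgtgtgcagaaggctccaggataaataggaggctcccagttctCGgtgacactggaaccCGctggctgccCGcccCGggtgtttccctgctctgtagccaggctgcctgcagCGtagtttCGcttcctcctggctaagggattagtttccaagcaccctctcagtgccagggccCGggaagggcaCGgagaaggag
The Tgfa window was 74.4% G or C with 26 CpG dinucleotides, that of Erbb4 was 73.6% with 31, and that of Btc was 62.8% with 10. The median over 33469 windows of the same length was 51.2% and 5 CpG dinucleotides. Sequences of Nrg1 and Erbb3 are not shown. Both strands of the 8 members with a window were searched for the AP-1 motif TGANTCA, the cyclic AMP response element TGACGTCA, a SOX motif ACAAAG and an EGR motif GCGNGGGCG. Among them, Areg held 1 match, to the cyclic AMP response element, which 1.59% of all windows held. The other motifs were found in 6.34% (AP-1), 16.3% (SOX) and 4.29% (EGR) of all windows and in none of the 8.

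Nrg1 encodes neuregulin 1, the ligand with the strongest known role in Schwann cells. It was at 1.897, 1.866 and 1.336 CPM in conduit libraries, against 29.17, 49.01 and 31.80 CPM in untreated libraries. Every conduit library lay below every untreated one, as was the case in 32.2% of all genes tested, while 29.5% lay wholly above and 61.7% were apart in either direction. The log2 fold change was -4.43 ± 0.27 (adjusted p = 7.82e-05), and only 1.23% of genes tested had a lower one. With each library left out in turn it ran from -4.57 to -4.16 and kept its call. The gene-level count does not tell apart the soluble and the axon-bound forms of neuregulin 1.

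Nrg2, a paralog that also binds ErbB3 and ErbB4, was scarce in both groups. Its counts were 15, 13 and 24 in conduit libraries and 61, 53 and 65 in untreated libraries. The ranges did not overlap, and the log2 fold change was -1.46 ± 0.38 (adjusted p = 0.016). The call was lost without conduit replicate 1 (adjusted p = 0.0596) or conduit replicate 2 (adjusted p = 0.0669). In FPKM, the ratio of Nrg1 to Nrg2 within a library was 1.27, 1.40 and 0.587 in conduit nerves and 6.10, 12.6 and 5.87 in untreated nerves, so Nrg1 was lower by a larger factor than Nrg2.

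Btc encodes betacellulin, a ligand of EGFR and ErbB4. It was at 1.017, 0.9045 and 0.9167 CPM in conduit libraries, against 11.99, 17.17 and 11.87 CPM in untreated libraries. The conduit libraries were close together and all below the untreated ones. Its log2 fold change of -3.85 ± 0.24 passed (adjusted p = 7.94e-05) and ran from -3.94 to -3.65 with each library left out.

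Tgfa encodes transforming growth factor alpha, a ligand of EGFR alone among the ErbB receptors. It was at 153.3, 136.4 and 118.3 CPM in conduit libraries, against 15.04, 16.20 and 20.02 CPM in untreated libraries. The lowest conduit library was several times the highest untreated one. The log2 fold change was 2.99 ± 0.17 (adjusted p = 7.32e-05), higher than that of 97.6% of genes tested, and it ran from 2.91 to 3.12 with each library left out. The ratio of Tgfa to Btc in FPKM was 20.6, 20.6 and 17.6 in conduit nerves and 0.172, 0.129 and 0.231 in untreated nerves. Its size depends on the gene lengths behind the FPKM, 4467 bases for Tgfa and 611 bases for Btc, but its difference between groups does not, since both groups share the lengths. By CPM, without length, Tgfa averaged 136.0 ± 17.5 in conduit and 17.09 ± 2.606 in untreated nerves, and Btc 0.9461 ± 0.06181 in conduit and 13.68 ± 3.023 in untreated nerves.

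Hbegf encodes heparin-binding EGF-like growth factor, the most abundant member by FPKM in all 6 libraries. It was at 152.6, 171.8 and 139.4 CPM in conduit libraries and at 92.25, 125.6 and 108.1 CPM in untreated libraries. The ranges came close without overlapping. The log2 fold change was 0.51 ± 0.16 (adjusted p = 0.0296), and the call depended on single libraries and on the scaling. It was lost without conduit replicate 1 (adjusted p = 0.0773), conduit replicate 2 (0.116), untreated replicate 1 (0.0788) or untreated replicate 3 (0.0665). With library totals the log2 fold change was 0.11 (adjusted p = 0.567), or 0.54 above the median of all genes under that scaling.

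Areg, amphiregulin, had 0 counts in each conduit library, against 3, 4 and 0 counts in untreated libraries. A count of 0 was read as an expected count of up to 3 in that library. Both groups were near the limit of detection at this depth, so no fold is given.

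Among the receptors, Erbb4, a full kinase that binds neuregulins and some EGF ligands, changed most. It was at 24.66, 24.76 and 24.52 CPM in conduit libraries, against 3.462, 5.816 and 5.108 CPM in untreated libraries. The conduit values were nearly equal and all far above the untreated ones. Its log2 fold change was 2.36 ± 0.21 (adjusted p = 0.000166), between 2.17 and 2.52 with each library left out. Even so, Erbb4 was the lowest receptor by FPKM in every library.

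Erbb2, the shared partner in ErbB dimers, was at 69.58, 68.29 and 61.63 CPM in conduit libraries, against 30.10, 25.93 and 40.64 CPM in untreated libraries. All conduit libraries were higher than all untreated ones. The fitted difference was 1.05 ± 0.18 on the log2 scale (adjusted p = 0.00259), ranged from 0.91 to 1.25 with each library left out, and was 0.66 (adjusted p = 0.0126) with library totals.

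Erbb3, the neuregulin-binding partner of ErbB2 in Schwann cells, was at 307.0, 309.0 and 244.7 CPM in conduit libraries and at 198.4, 204.3 and 208.8 CPM in untreated libraries. The untreated libraries were tightly grouped, and conduit replicate 3 was nearest to them. The log2 fold change of 0.49 ± 0.14 passed (adjusted p = 0.022). The call was lost without conduit replicate 1 (adjusted p = 0.0796), conduit replicate 2 (0.093) or untreated replicate 1 (0.0559), and with library totals (log2 fold change 0.10, adjusted p = 0.532, or 0.53 above the median of all genes under that scaling). Sox10, a transcription factor of the Schwann cell lineage, was at 365.0, 324.6 and 301.8 CPM in conduit and 136.3, 138.5 and 139.0 CPM in untreated libraries. The ratio of Erbb3 to Sox10 in FPKM, which no scaling of libraries alters, was 0.368, 0.417 and 0.355 in conduit nerves and 0.637, 0.645 and 0.657 in untreated nerves. Relative to Sox10, Erbb3 was thus lower in all 3 conduit libraries, while the ratio of Erbb2 to Sox10 overlapped, at 0.0939 to 0.104 in conduit and 0.0922 to 0.144 in untreated nerves. The comparison with Sox10 was chosen after its values were seen.

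Egfr, the EGF receptor, was at 31.20, 55.06 and 61.92 CPM in conduit libraries and at 24.91, 36.69 and 39.23 CPM in untreated libraries. Conduit replicate 1 lay within the untreated range and the other conduit libraries lay above it. The log2 fold change was 0.56 ± 0.28 (adjusted p = 0.138). Without conduit replicate 1 it was 0.82 (adjusted p = 0.0274). Marker sums of several cell types, like Egfr, were lowest in replicate 1 of both groups, though single markers did not all follow. They were 2166 CPM against 3804 and 3862 CPM in conduit libraries and 2481 CPM against 3355 and 3374 CPM in untreated libraries for fibroblasts (Pdgfra, Dcn, Lum, Pi16, Dpt), although Pi16 and Dpt alone were not lowest in untreated replicate 1. Macrophage sums were 133.1 CPM against 242.4 and 315.7 CPM in conduit libraries and 1218 CPM against 1473 and 1768 CPM in untreated libraries. Of the macrophage markers, however, Cd68 and Aif1 were highest in untreated replicate 1, and C1qa was not lowest there. Endothelial sums were 547.3 CPM against 571.1 and 628.4 CPM in conduit libraries and 624.4 CPM against 750.0 and 762.3 CPM in untreated libraries. The endothelial marker Cldn5 was instead highest in replicate 1 of both groups. Adipocyte sums were 164.9 CPM against 202.9 and 818.3 CPM in conduit libraries and 36.03 CPM against 96.21 and 241.5 CPM in untreated libraries, although Lep was highest in untreated replicate 1. Perineurial sums were 1999 CPM against 2279 and 2387 CPM in conduit libraries and 331.0 CPM against 373.3 and 526.5 CPM in untreated libraries. Slc2a1 was not lowest in replicate 1 of either group. Mural sums were 492.7 CPM against 641.5 and 522.9 CPM in conduit libraries and 322.2 CPM against 352.2 and 542.7 CPM in untreated libraries. Rgs5 was not lowest in replicate 1 of conduit, nor Cspg4 in that of untreated. The types above are those whose sums followed Egfr in this way, and the sums of the other types did not. That of the 4 Schwann cell markers was highest in conduit replicate 1, at 5250 CPM. The T cell sum was lowest in untreated replicate 2, at 175.4 CPM. Libraries of the same number are not known to be pairs. The part of any cell type in the Egfr level was not tested.

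**Figure D2:**
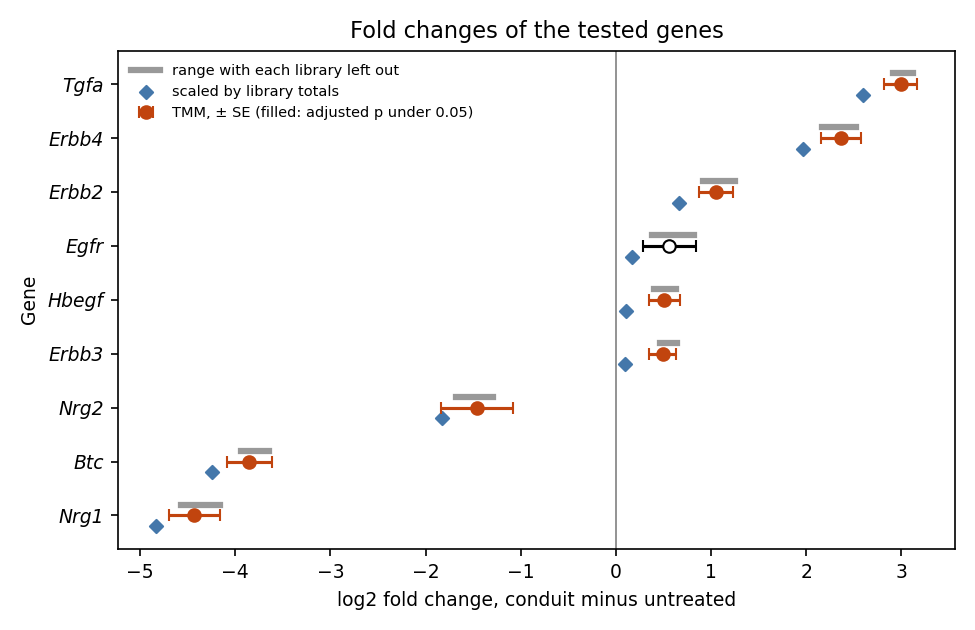
Log2 fold change (conduit minus untreated) of the 9 tested genes, with circles for TMM scaling and bars of ± SE, grey bars for the range with each library left out in turn, and diamonds for scaling by library totals. Nrg1 (-4.43) and Btc (-3.85) are at the low end and Tgfa (2.99) and Erbb4 (2.36) at the high end, while Hbegf and Erbb3 sit near 0.1 with library totals.

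Levels of different genes were compared by FPKM, which divides by gene length and by the library total. The length behind the deposited FPKM was 22295 bases for Nrg1 and 611 bases for Btc, against 1149 to 12621 bases for the other 8 members, so the place of these 2 in the order and their shares below depend on the authors' gene models. In the order of levels, Hbegf was highest and Erbb3 next in all 6 libraries. Tgfa followed in conduit nerves at 26.57 ± 2.951 FPKM and Btc in untreated nerves at 25.69 ± 6.518 FPKM. Erbb2 was the next in both groups, at 10.43 ± 0.4155 FPKM in conduit and 6.598 ± 1.463 FPKM in untreated nerves. Egfr came after it in conduit nerves, whereas in untreated nerves the ranges of Egfr and Tgfa overlapped. Nrg1 and Nrg2 overlapped near the bottom in conduit nerves, at 0.06642 ± 0.01068 and 0.06707 ± 0.02214 FPKM, but not in untreated nerves, at 1.891 ± 0.6187 and 0.2398 ± 0.03469 FPKM. Areg was the lowest in each library.

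The make-up of each set was described by the share of each gene in the summed FPKM, with no test. Among receptors, Erbb3 held 70.45 ± 3.422% in conduit nerves and 77.2 ± 2.926% in untreated nerves. Erbb2 held 18.45 ± 0.6556% in conduit and 13.64 ± 2.486% in untreated nerves, and Egfr held 8.071 ± 3.085% in conduit and 8.265 ± 1.525% in untreated nerves. Erbb4 held 3.026 ± 0.2582% in conduit and 0.8976 ± 0.2112% in untreated nerves. Receptor FPKM summed to 56.61 ± 3.249 in conduit and 48.24 ± 3.358 in untreated nerves. Among ligands, the sums differed by less than their spread, at 115.2 ± 7.685 FPKM in conduit and 112.6 ± 21.62 FPKM in untreated nerves, and Hbegf held 75.62 ± 2.231% of it in conduit and 71.44 ± 1.522% in untreated nerves. Beside it, Tgfa held 23.08 ± 2.15% in conduit and 3.949 ± 0.777% in untreated nerves, and Btc 1.18 ± 0.1274% in conduit and 22.69 ± 2.079% in untreated nerves. The Btc share rests on its length of 611 bases. Nrg1 held 0.05746 ± 0.006289% in conduit and 1.653 ± 0.223% in untreated nerves.

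**Figure D3:**
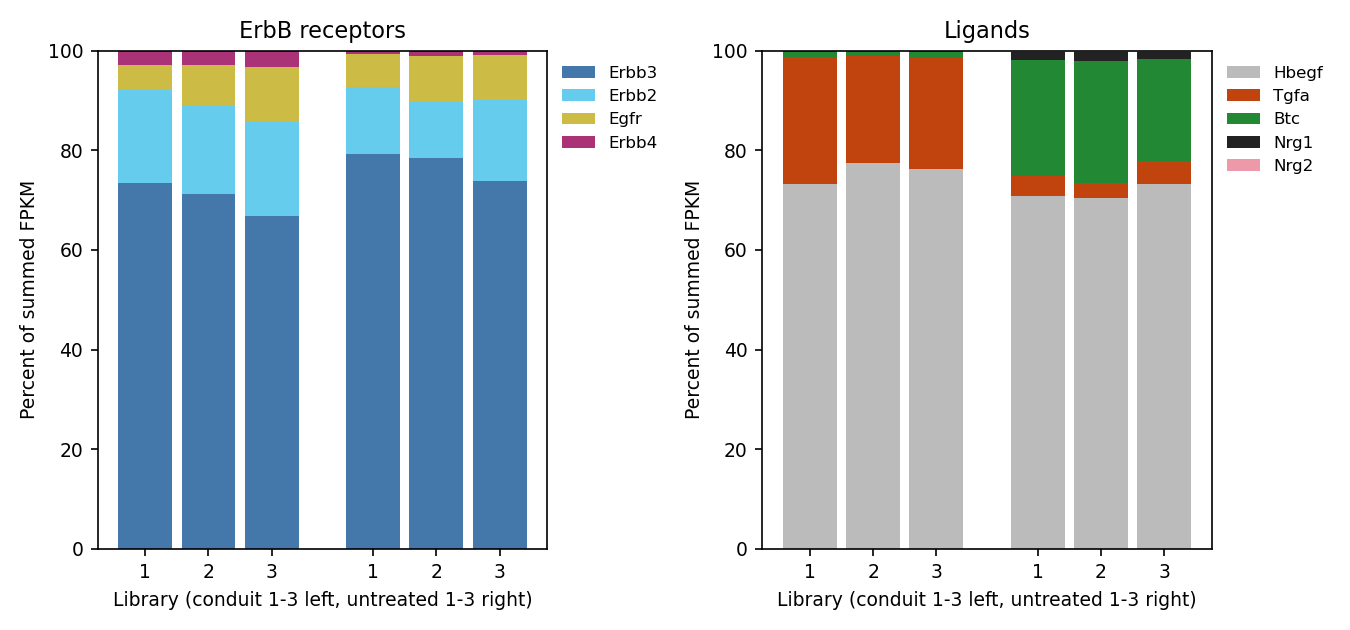
Share of each gene in the summed FPKM of the 4 receptors (left) and of the ligands (right), with 1 bar per library, conduit libraries left of untreated ones. Erbb3 is the largest receptor share in every library. Tgfa held 21.34 to 25.48% of the ligand sum in conduit nerves and 3.147 to 4.698% in untreated nerves, and Btc 1.035 to 1.27% in conduit and 20.37 to 24.38% in untreated nerves, where the Btc share rests on a gene length of 611 bases. Areg held under 0.1% and is not drawn.

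Ratios of ligand to receptor within a library followed the same lines. The ratio of Tgfa to Egfr in FPKM was 10.5, 5.31 and 4.10 in conduit nerves and 1.30, 0.947 and 1.09 in untreated nerves, with conduit replicate 1 highest. The ratio of Nrg1 to Erbb3 was 0.00174, 0.0017 and 0.00153 in conduit nerves and 0.0413, 0.0674 and 0.0428 in untreated nerves. The ratio of Hbegf to Egfr overlapped between groups, at 13.9 to 30.3 in conduit and 17.1 to 22.9 in untreated nerves. These are ratios of mRNA and say nothing of protein.

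A further 40 genes of the ErbB pathway were all in the count table, and 37 were tested. Of these, 10 rose, 7 fell and 20 did not pass, so 17 were called beside the background of 50.2%. With library totals 8 rose and 15 fell. Their median log2 fold change was 0.06, against -0.04 over all genes tested. Genes named here beyond the 2 with the smallest p in each group were chosen after their values were seen.

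Other ligands were scarce. Nrg4, a ligand of ErbB4, was at 0.08247, 0.5088 and 0.5238 CPM in conduit and 1.385, 0.828 and 2.071 CPM in untreated libraries (log2 fold change -1.93 ± 0.67, adjusted p = 0.0454). The call was lost on leaving out any single library other than untreated replicate 2 (adjusted p = 0.0674 to 0.129 in those fits). Egf, the prototype EGFR ligand, was at 3.962 ± 0.6907 CPM in conduit and 1.832 ± 1.07 CPM in untreated nerves and did not pass (adjusted p = 0.0691). Nrg3 and Ereg had 0 counts in all libraries, read as an expected count of up to 3 in each, and Epgn was not tested.

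Of 10 proteases and partners that process ErbB ligands, 3 rose and 4 fell, beside 24.0% higher and 26.2% lower over all genes tested. Bace1, the beta-secretase that cuts neuregulin 1, was at 72.27, 83.92 and 78.21 CPM in conduit libraries and 20.45, 23.93 and 26.21 CPM in untreated libraries (log2 fold change 1.73 ± 0.14, adjusted p = 0.000126). Adam10, a sheddase of betacellulin and EGF, was at 246.7, 249.6 and 251.8 CPM in conduit libraries and 63.36, 112.4 and 85.05 CPM in untreated libraries (1.52 ± 0.21, adjusted p = 0.00103). Both genes were higher in all 3 conduit libraries. Rhbdf1, an inactive rhomboid that helps traffic ADAM17, was the third that rose (0.59 ± 0.13), and it did not pass with library totals (0.21, adjusted p = 0.183). The 4 that fell were the metalloproteases Adam12 (-2.40 ± 0.47), Adam19 (-0.97 ± 0.22) and Adam17 (-0.45 ± 0.10), the last being the main sheddase of TGF-alpha and HB-EGF, and the proprotein convertase Furin (-1.03 ± 0.16). Adam17 did not pass without conduit replicate 2 (adjusted p = 0.0657) or conduit replicate 3 (0.0533).

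Of 15 relay genes, 3 rose, 1 fell and 11 did not pass, beside 24.0% higher and 26.2% lower over all genes tested. Pik3r1, a regulatory subunit of phosphoinositide 3-kinase, was at 244.8, 286.8 and 265.4 CPM in conduit libraries and 50.25, 45.28 and 80.95 CPM in untreated libraries (2.18 ± 0.24, adjusted p = 0.000376). Gab1, a docking protein downstream of ErbB receptors, was at 149.5, 147.5 and 144.3 CPM in conduit libraries and 38.82, 41.12 and 60.04 CPM in untreated libraries (1.66 ± 0.18, adjusted p = 0.000412). Neither range touched the other group's. Mapk3, the kinase ERK1, also rose (1.30 ± 0.16). Gab2, the paralog of Gab1, fell (-0.85 ± 0.18). The adaptors Grb2 (-0.25 ± 0.12), Shc1 (-0.41 ± 0.23) and Sos1 (0.14 ± 0.19) did not pass. With library totals Grb2 (-0.63, adjusted p = 0.00307) and Shc1 (-0.80, adjusted p = 0.0278) passed as lower, and Sos1 (-0.24, adjusted p = 0.351) did not pass.

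Of 10 genes that restrain or turn over ErbB receptors, 4 rose and 1 fell. The 5 called are near the share of 50.2% over all genes tested (24.0% higher, 26.2% lower). Lrig1, a membrane protein that promotes ErbB receptor degradation, was at 95.69, 86.92 and 88.87 CPM in conduit libraries and 25.88, 28.78 and 36.20 CPM in untreated libraries (1.58 ± 0.15, adjusted p = 0.000212). Its relative Lrig2 (1.06 ± 0.17), the cytoplasmic EGFR kinase inhibitor Errfi1 (1.29 ± 0.29) and Rnf41, a ubiquitin ligase of ErbB3 (0.47 ± 0.11), also rose, and Rnf41 did not pass with library totals (0.08, adjusted p = 0.51). Sh3kbp1, an adaptor of Cbl-driven receptor uptake, was the one that fell, at 34.40 ± 2.724 CPM in conduit and 60.42 ± 6.116 CPM in untreated nerves (-0.81 ± 0.13, adjusted p = 0.00175). The ubiquitin ligases Cbl (0.06 ± 0.14) and Nedd4 (0.10 ± 0.19) did not pass.

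**Figure D4:**
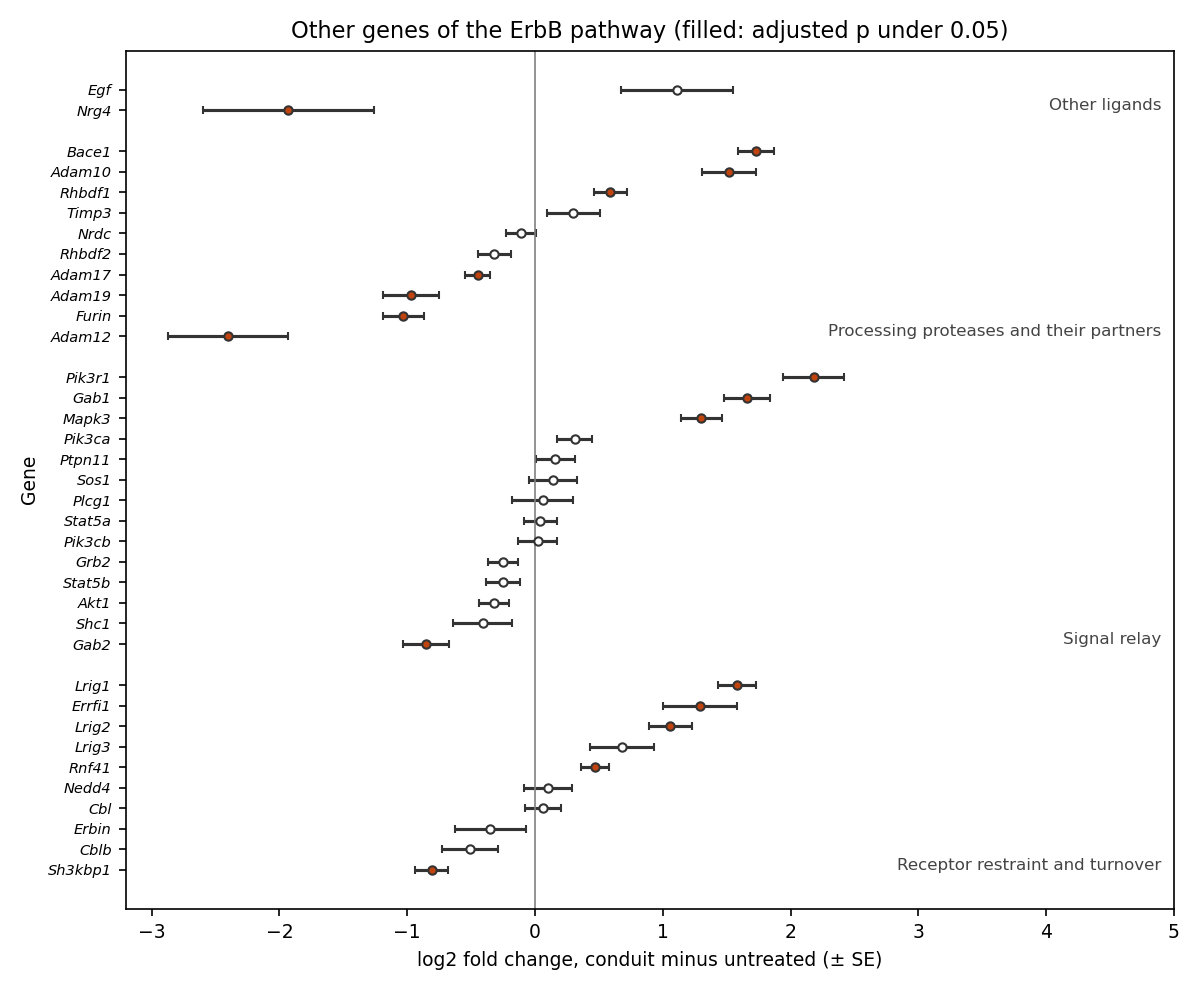
Log2 fold change (conduit minus untreated) ± SE of 36 of the 37 tested pathway genes, in 4 groups by role, with filled circles for adjusted p under 0.05. Pik3r1 (2.18) is the highest and Adam12 (-2.40) the lowest, and the filled circles lie on both sides of 0 among proteases, relay genes and restraint genes.

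Markers of several cell types moved between the same groups, and in whole tissue fewer cells of a type and less RNA per cell cannot be told apart. The counts of markers that follow stand beside 24.0% of all genes tested called higher and 26.2% called lower. Of the 4 Schwann cell markers given above 3 rose and 0 fell. All 6 macrophage markers fell, with sums of 133.1 to 315.7 CPM in conduit and 1218 to 1768 CPM in untreated nerves, and so did all 4 T cell markers (36.01 to 71.43 CPM in conduit, 175.4 to 261.6 CPM in untreated) and all 4 markers of dividing cells (8.706 to 16.38 CPM in conduit, 172.5 to 233.4 CPM in untreated). The T cell sum was nearly all Cd4 in conduit nerves, at 34.28 to 70.25 CPM, and nearly all Cd4 and Cd8a in untreated nerves. Cd3e reached at most 3.398 CPM and Cd3d at most 1.991 CPM in any library. All 3 perineurial markers tested of 4 rose, with sums of 1999 to 2387 CPM in conduit and 331.0 to 526.5 CPM in untreated nerves. Fibroblast sums overlapped, at 2166 to 3862 CPM in conduit and 2481 to 3374 CPM in untreated nerves, as did mast cell sums, at 30.19 to 77.06 CPM in conduit and 30.07 to 43.01 CPM in untreated nerves, and mural cell sums, at 492.7 to 641.5 CPM in conduit and 322.2 to 542.7 CPM in untreated nerves. By single markers, 1 of 5 fibroblast markers fell, 0 of 4 mast cell markers were called and 1 of 4 mural markers rose. Of 4 endothelial markers 1 rose and 2 fell, with sums of 547.3 to 628.4 CPM in conduit and 624.4 to 762.3 CPM in untreated nerves. Of 4 adipocyte markers 2 rose and 0 fell, with sums of 164.9 to 818.3 CPM in conduit and 36.03 to 241.5 CPM in untreated nerves. The neuronal sum, 90.36 to 118.0 CPM in conduit and 41.56 to 56.09 CPM in untreated nerves, was nearly all Uchl1, and Rbfox3 stayed at or below 0.4805 CPM. The keratinocyte sum was 10.32 to 14.67 CPM in conduit and 2.585 to 2.830 CPM in untreated nerves, most of the conduit value being from Krt5, with Krt14 at most at 0.05498 CPM. The part of any of these cell types in the levels of the ErbB genes was not tested. Without untreated replicate 1, the library with muscle RNA, the log2 fold change was -4.57 for Nrg1 (-4.43 with all libraries), -3.94 for Btc (-3.85), 2.91 for Tgfa (2.99) and 2.17 for Erbb4 (2.36), while Erbb3 (adjusted p = 0.0559) and Hbegf (0.0788) were not called.

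The genes nearest in pattern to Nrg1 and Erbb3 were found by the Euclidean distance between log2 CPM values, each centred on its mean over the 6 libraries, and they are listed as a description. Nearest to Nrg1 were Pcsk1, a proprotein convertase, at a distance of 0.243, Aurkb, a mitotic kinase, at 0.355, and Pclaf, a factor bound to the replication clamp, at 0.476. Pcsk1 was at 1.927 ± 0.3045 CPM in conduit and 39.07 ± 12.48 CPM in untreated nerves, and like Nrg1 it was highest in untreated replicate 2. Nearest to Erbb3 were Tmem128 at a distance of 0.0914, Sfxn3, a mitochondrial carrier of serine, at 0.113, and Caprin2 at 0.118. Tmem128 was at 70.72 ± 10.21 CPM in conduit and 49.61 ± 1.383 CPM in untreated nerves, with conduit replicate 3 the lowest of its group as for Erbb3.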

How the data were processed

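Sciatic nerve mRNA was sequenced in 3 conduit and 3 untreated libraries with the VAHTS Universal V10 kit, per the labels' protocols. The authors deposited raw counts per gene symbol and FPKM values. The tools named in the submitters' processing notes are HISAT2, HTSeq, fastp and DESeq2, and the build is mRatBN7.2; their roles, versions and strand setting are not given in the sources used here. The deposited FPKM were checked on 20504 genes detected in 2 or more libraries: each gene's values gave 1 length when set against counts and library totals (tolerance 0.0001). Every column was used (0 left out) and 0 rows lacked a gene name.

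Counts of all genes were tested two-sided by quasi-likelihood in edgeR 4.0.16 (R 4.3.3), after filterByExpr (minimum count 10) and TMM scaling, with Benjamini-Hochberg adjustment. SE is the log2 fold change over the square root of F. Code was tested on simulated data. Alternatives were DESeq2 1.42.0, other scalings and filters, a replicate block, robust dispersions, limma 3.58.1 on log2(FPKM + 1 or 0.1) with or without a filter of 0.5 FPKM in 3 libraries, and each library left out. Library pairs of 1 group differed by more than sampling noise (chi-square per degree of freedom 51.4 or more). The rule for named genes gave all members, the 2 other pathway genes of smallest p in each of 4 groups, and the 3 nearest in pattern to Nrg1 and Erbb3; the other pathway genes printed, and Sox10, were chosen after their values were seen. Some genes of the lists are not reported here. Members, lists and rules were chosen with earlier results of these data known. In the RefSeq table of GRCr8, Nrg2 overlaps Psd2, which had at most 5 counts in a library, and no other member overlaps a gene with counts here.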

Additional observations from a re-analysis of the deposited data

How the results depend on the processing

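Refits of single genes covered the 9 tested members and the 17 pathway genes called. Of 410 such refits, 373 kept direction and side of the threshold, 35 lost the call, 2 gained it (both Egfr) and 0 reversed. Pathway genes not called were left out, so Egfr was the only gene that could gain a call. With library totals some of those left out passed as lower, among them Akt1 (-0.70, adjusted p = 0.00194) and Grb2 (-0.63, adjusted p = 0.00307). Nrg1, Btc, Tgfa, Erbb2 and Erbb4 passed in all 16 alternatives, although on the log2(FPKM + 1) scale, which compresses low values, Nrg1 was at -1.42. Members higher were 3 with library totals and 3 in each of the 3 limma fits on FPKM (5 as reported), and 3 to 5 with each library left out, when 2 or 3 were lower; the 3 came without conduit replicate 2 or untreated replicate 1. Other pathway genes lower were 15 with library totals and 14 in each limma fit (7 as reported), and with each library left out 5 to 8 were lower and 10 to 12 higher. Over all genes, library totals gave 2291 higher and 6554 lower, limma 2044, 2034 (pseudocount 0.1) and 2254 (unfiltered) higher, with 6263 lower unfiltered, and libraries left out 2921 to 3774 higher and 2919 to 4108 lower. FPKM is itself scaled by library totals. Deviations of same-numbered libraries from their group means were at most weakly correlated (0.144, -0.028 and 0.064). With 3 libraries per group, such values cannot settle whether the numbers pair the libraries. With a replicate block 6 members were higher, Egfr being the addition (0.52, adjusted p = 0.0217), and 3 lower. Nrg2, Nrg4 and Areg are limited by depth.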
